A study of Arabidopsis thaliana with 45 samples.

Results

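The nuclear genome of Arabidopsis thaliana encodes the antenna proteins, the outer subunits and the carbon-fixing enzyme of photosynthesis, and 47 such genes are described here. They were taken as a fixed list of gene identifiers, chosen by gene family: 6 LHCA genes, 14 LHCB genes, 12 PSA genes, 10 PSB genes, and 5 genes for the small subunit of Rubisco (RBCS) and for Rubisco activase (RCA). All 47 were found among the 32678 genes of the RNA count table and all 47 passed the filter on low counts, which left 20046 genes to test. The same 47 were placed against the peak lists among 27432 nuclear protein-coding genes.

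Light is gathered by chlorophyll-binding proteins, the LHCA proteins around photosystem I and the LHCB proteins around photosystem II, and passed to reaction centres whose core subunits are encoded in the chloroplast while many outer subunits (PSA, PSB) are nuclear. Photosystem II splits water, photosystem I reduces ferredoxin, and Rubisco uses the products to fix carbon dioxide. In green leaves these genes belong to the most highly expressed of the genome. FIE is a subunit of Polycomb repressive complex 2, which trimethylates lysine 27 of histone H3 (H3K27me3), a mark known from silent genes, and the kinase TOR couples nutrients to growth. The series compared gene expression and histone marks in plants with altered FIE or TOR.

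RNA was sequenced from shoots cut from plants 2 weeks old on solid medium, in 4 genotypes with 3 libraries each. Ctrl was the wild type Col-0. The line amiR-fie-es carried an artificial microRNA against FIE, induced by oestradiol (10 mM as written in the labels) from the start of growth. GFP-FIE and SSTS/AAAA were both fie mutants carrying a GFP-tagged FIE transgene, with the normal protein in the first and a phosphorylation-site mutant form in the second, so they share the mutant background and the tag. Whether Ctrl plants also received oestradiol, which promoter drove the transgenes and how many independent lines were used are not given in the sources used here. H3K27me3 chromatin immunoprecipitation (ChIP) covered these 4 genotypes at 2 weeks and, in seedlings 7 days old from liquid medium, Col-0, tor-es (TOR depleted by oestradiol) and Col-0 given DMSO, 10 µM AZD8055 or 10 µM Torin2, which are TOR inhibitors, on day 4 for 3 days, again with 3 libraries per group. H3K9me2, a mark known from transposons, was mapped in the same Col-0 and tor-es seedlings. Nothing in the labels says that libraries of a group came from separate cultures, so the p-values measure the spread between these libraries, which may be technical.

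The RNA libraries held 28866845 to 34543091 counts. SSTS/AAAA replicate 1 stood apart from its group, with a chi-square of counts per degree of freedom of 3.30 and 3.44 against the other 2, which gave 1.56 between them, and with 0.914% of counts from chloroplast-encoded genes against 0.728% and 0.698%. Without it, all 47 genes were still lower in SSTS/AAAA than in GFP-FIE, with a median log2 fold change of -0.49 in place of -0.47. With all libraries, 32.3% of all genes tested were called lower in this comparison. FIE itself stood at 15.7, 18.3 and 18.6 CPM (counts scaled to a common library size) in Ctrl, 9.1, 8.79 and 8.81 in amiR-fie-es, 25.2, 27.6 and 23.8 in GFP-FIE and 12.2, 11.7 and 11.4 in SSTS/AAAA, where reads of the transgene and of the resident gene are not told apart. Markers of floral organs moved with the genotype. All 7 rose in amiR-fie-es against Ctrl, where 29.3% of all genes tested were called higher. All 7 also rose in SSTS/AAAA against GFP-FIE, where 33.3% were called higher. Their summed level was 4.03 to 5.53 FPKM in Ctrl, 151 to 154 in amiR-fie-es, 3.74 to 5.84 in GFP-FIE and 281 to 285 in SSTS/AAAA. The meristem markers STM and KNAT1 with WUS and CLV3, of which the last 2 did not pass the filter, summed to 8.20 to 8.63 FPKM in Ctrl, 9.63 to 11.1 in amiR-fie-es, 6.65 to 7.52 in GFP-FIE and 26.1 to 27.7 in SSTS/AAAA. The 10 root markers summed to at most 0.846 FPKM in any library and none passed the filter, and 1 of them had 0 counts in all GFP-FIE libraries. The part of these cell types in the values below was not tested, and in bulk RNA fewer cells of a type and less RNA per cell cannot be told apart.

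FPKM, the count scaled by gene length and library total, was highest for LHCB1.3 (AT1G29930), a gene of the major trimeric antenna of photosystem II, at 16350.3 ± 148 (SD, n = 3) in Ctrl. RBCS1A followed at 16112 ± 182 FPKM, and the libraries of these neighbours in the order overlapped. LHCB1.5 came next with 11035 ± 71.7 FPKM, then RCA with 8129 ± 13.95 and RBCS3B with 8099 ± 34.1, and the last 2 of these differ by less than the SD of RBCS3B. The lowest were LHCB4.3 with 43.1 ± 1.68, LHCA5 with 133 ± 2.13 and LHCA6 with 207 ± 1.18 FPKM. Of the 47 genes, 43 stood among the 100 genes with the highest FPKM in Ctrl. The order of the levels was nearly the same in every genotype, with a Spearman correlation with Ctrl over the 47 genes of 0.993 in amiR-fie-es, 0.997 in GFP-FIE and 0.989 in SSTS/AAAA.

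Together the 47 genes took up a share of all counts that set the genotypes apart. The share ran from 19.3% to 19.5% in the 3 Ctrl libraries, from 16.3% to 16.4% in amiR-fie-es, from 20.6% to 20.7% in GFP-FIE and from 17.2% to 17.5% in SSTS/AAAA. No group overlapped another. The mean fell from 19.4% ± 0.105 in Ctrl to 16.3% ± 0.0650 in amiR-fie-es, and from 20.6% ± 0.0560 in GFP-FIE to 17.3% ± 0.172 in SSTS/AAAA (SD, n = 3 each). The exact permutation test, two-sided, gave p = 0.1 in each case, the smallest that 3 against 3 libraries allow. For the 5 RBCS and RCA genes alone, GFP-FIE (4.59%) and Ctrl (4.57%) overlapped (exact permutation p = 0.5), whereas each of the other 4 families took a larger share in GFP-FIE than in any Ctrl library.

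**Figure D1:**
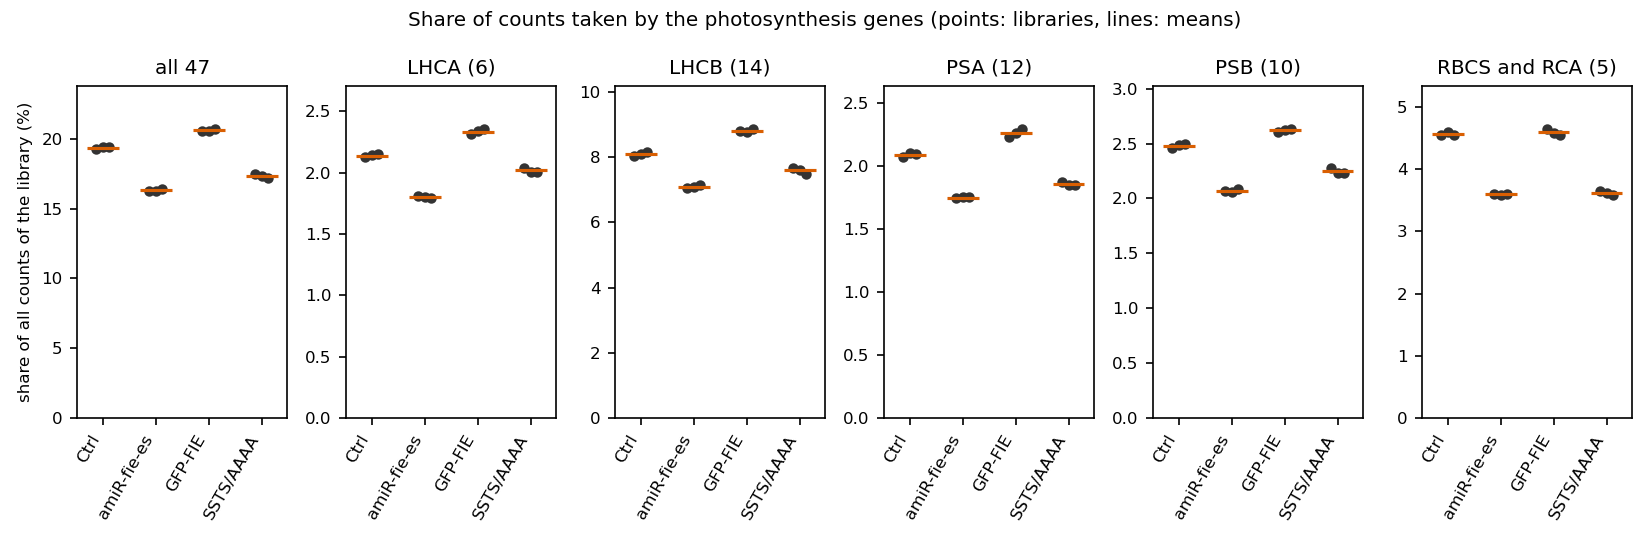
Share of all counts of a library (%, vertical axes from 0) for all 47 genes and for each family, with 1 point per library and a line at the mean of the 3 libraries of each genotype. The amiR-fie-es and SSTS/AAAA libraries lie below those of Ctrl and GFP-FIE in every panel, and GFP-FIE overlaps Ctrl only in the panel of RBCS and RCA.

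The first comparison set plants with silenced FIE against the wild type. All 47 genes fell in amiR-fie-es against Ctrl and 0 rose, where 30.0% of all genes tested were called lower and 29.3% higher. The median log2 fold change was -0.46, against 0.01 over all genes tested, and the range ran from -1.13 to -0.29. A fall of at least 1.5-fold was met by 6 of the 47, where 10.8% of all genes met it: LHCB4.3, RBCS2B, LHCB2.3, PSBQ1, RBCS1B and LHCA6. In all 47 genes every amiR-fie-es library lay below every Ctrl library, as in 31.7% of all genes tested. Calls are those of edgeR's quasi-likelihood test with Benjamini-Hochberg adjustment over all genes and a threshold of 0.05, two-sided.

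The second comparison set the phosphorylation-site mutant FIE against normal FIE in the same background. FIE RNA differed too, at 12.2, 11.7 and 11.4 CPM in SSTS/AAAA and 25.2, 27.6 and 23.8 CPM in GFP-FIE. The form of the protein and the level of FIE RNA cannot be told apart here. Again all 47 genes fell in SSTS/AAAA against GFP-FIE and 0 rose, where 32.3% of all genes tested were called lower and 33.3% higher. The median log2 fold change was -0.47, against 0.02 over all genes, with a range from -1.08 to -0.20. Here 14 of the 47 fell by at least 1.5-fold, where 10.5% of all genes did. In all 47 genes every SSTS/AAAA library lay below every GFP-FIE library, as in 33.2% of all genes tested. These values depend on the scale used: with library totals alone as the scale, the median of all genes was 0.20 in the first comparison and 0.23 in the second, and the members' medians became -0.27 and -0.26, with LHCB1.5 at 0.01 in the second.

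Among the genes of the photosystem I antenna, LHCA1 to LHCA4 encode its main belt, and LHCA5 and LHCA6 serve to join photosystem I to the chloroplast NADH dehydrogenase-like complex. LHCA6 (AT1G19150) fell most in both comparisons. Its level was 230.1, 229.9 and 229.5 CPM in the Ctrl libraries and 146, 151 and 153 CPM in amiR-fie-es. The libraries did not overlap, and the log2 fold change was -0.62 ± 0.023 (SE, adjusted p = 3.33e-26). In GFP-FIE it stood at 241, 242 and 249 CPM and in SSTS/AAAA at 152, 154 and 148 CPM, a log2 fold change of -0.69 ± 0.023 (SE, adjusted p = 3.46e-28). LHCA3 (AT1G61520) fell least in amiR-fie-es, from 4522, 4605 and 4677 CPM to 3519.9, 3495 and 3511 CPM, or -0.39 ± 0.013 (SE, adjusted p = 1.42e-27) on the log2 scale. LHCA4 (AT3G47470) fell least in SSTS/AAAA, where it was at 7653, 7409 and 7395 CPM against 9002, 9213 and 9319 CPM in GFP-FIE, or -0.29 ± 0.014 (SE, adjusted p = 1.96e-22) on the log2 scale. The other 3, LHCA1 (AT3G54890), LHCA2 (AT3G61470) and LHCA5 (AT1G45474), had log2 fold changes of -0.51, -0.46 and -0.44 in amiR-fie-es and of -0.59, -0.50 and -0.45 in SSTS/AAAA.

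The LHCB genes showed the widest spread. LHCB1, LHCB2 and LHCB3 encode the trimeric major antenna of photosystem II, and LHCB4, LHCB5 and LHCB6 the monomeric antenna proteins that link it to the core. LHCB4.3 (AT2G40100), the copy with the lowest level, had the largest fall of all members in amiR-fie-es. It stood at 63.1, 66.9 and 62.4 CPM in Ctrl and at 30.4, 29.3 and 28.5 CPM in amiR-fie-es, a log2 fold change of -1.13 ± 0.038 (SE, adjusted p = 9.52e-28). Its GFP-FIE libraries, at 47.9, 46.8 and 46.2 CPM, lay below Ctrl as well, and those of SSTS/AAAA, at 29.4, 29.7 and 28.1 CPM, lay lower still with -0.69 ± 0.04 (SE, adjusted p = 1.07e-19) against GFP-FIE. The other 2 genes of its kind had log2 fold changes in the first and second comparison of -0.35 and -0.51 for LHCB4.1 (AT5G01530) and of -0.58 and -0.40 for LHCB4.2 (AT3G08940).

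LHCB2.3 (AT3G27690) had the largest fall in SSTS/AAAA. It stood at 2330.4, 2378 and 2377 CPM in GFP-FIE and at 1134, 1112 and 1104 CPM in SSTS/AAAA, a log2 fold change of -1.08 ± 0.017 (SE, adjusted p = 1.16e-40). Between Ctrl, at 1935, 1989 and 2004 CPM, and amiR-fie-es, at 1095, 1099 and 1129 CPM, the log2 fold change was -0.83 ± 0.017 (SE, adjusted p = 2.09e-36). No libraries overlapped in either comparison. Its sister genes fell far less: LHCB2.1 (AT2G05100), the member with the smallest fall in amiR-fie-es, went from 4331, 4458 and 4391 CPM to 3626, 3595 and 3586 CPM, or -0.29 ± 0.014 (SE, adjusted p = 1.65e-21). LHCB2.2 (AT2G05070) had log2 fold changes of -0.36 and -0.37. Per length, LHCB2.3 made up 21.2% of LHCB2 transcripts in Ctrl and 22.3% in GFP-FIE, but 15.9% in amiR-fie-es and 14.5% in SSTS/AAAA, with no overlap between libraries of the compared groups.

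Of the 5 LHCB1 genes, LHCB1.5 (AT2G34420) had the smallest fall of all members in SSTS/AAAA. It was at 13130.1, 13130.5 and 13283 CPM in GFP-FIE and 11531, 11592 and 11295 CPM in SSTS/AAAA, a log2 fold change of -0.20 ± 0.012 (SE, adjusted p = 1.15e-18). Its neighbour LHCB1.4 (AT2G34430) had -0.93 ± 0.016 (SE, adjusted p = 1.95e-38) in the same comparison, from 2670.2, 2773 and 2789 CPM to 1452, 1437 and 1419.8 CPM. LHCB1.4 also stood out between the controls: at 1797, 1825 and 1846 CPM in Ctrl, it was 0.59 ± 0.016 (SE, adjusted p = 4.07e-30) higher in GFP-FIE on the log2 scale, the largest rise of any member there. LHCB1.1 (AT1G29920), LHCB1.2 (AT1G29910) and LHCB1.3 (AT1G29930) had log2 fold changes of -0.33, -0.48 and -0.30 in amiR-fie-es and of -0.40, -0.53 and -0.42 in SSTS/AAAA. The remaining antenna genes LHCB3 (AT5G54270), LHCB5 (AT4G10340) and LHCB6 (AT1G15820) had -0.37, -0.41 and -0.56 in the first comparison and -0.45, -0.49 and -0.55 in the second.

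Several of these genes are near-identical copies, among which the counting could divide reads, so single values within LHCB1, LHCB2 and RBCS are uncertain. Summed over its copies, LHCB1 had a log2 fold change of -0.35 in amiR-fie-es and -0.40 in SSTS/AAAA. The LHCB2 sum had -0.41 and -0.44, and the RBCS sum -0.55 and -0.65.

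The PSA genes encode outer subunits of photosystem I. PSAD and PSAE form the side where ferredoxin docks, PSAF and PSAN the side of plastocyanin, PSAG and PSAK small membrane subunits, and PSAH, PSAL and PSAO the region where antenna of photosystem II can attach. The log2 fold changes of the 12 genes lay between -0.58 and -0.30 in amiR-fie-es and between -0.65 and -0.36 in SSTS/AAAA. PSAD2 (AT1G03130) fell most in both. It stood at 1388, 1395 and 1450.0 CPM in Ctrl and 946, 929.6 and 953 CPM in amiR-fie-es, a log2 fold change of -0.58 ± 0.017 (SE, adjusted p = 7.08e-30). In GFP-FIE it was at 1598, 1586 and 1596 CPM and in SSTS/AAAA at 1019, 1029 and 995 CPM, or -0.65 ± 0.017 (SE, adjusted p = 7.20e-32). PSAE2 (AT2G20260) fell least in both, with 390.1, 389 and 401 CPM in Ctrl against 320.2, 314 and 327 CPM in amiR-fie-es, or -0.30 ± 0.021 (SE, adjusted p = 1.30e-16). Its level was 421, 427 and 431 CPM in GFP-FIE and 339.9, 329.5 and 326 CPM in SSTS/AAAA, or -0.36 ± 0.02 (SE, adjusted p = 7.63e-20). Neither gene had overlapping libraries in either comparison. Of their partner genes, PSAD1 (AT4G02770) had -0.44 and -0.47, while PSAE1 (AT4G28750) had -0.50 and -0.52 in the first and second comparison. Values for the others were -0.33 and -0.51 for PSAF (AT1G31330), -0.47 and -0.59 for PSAH1 (AT3G16140), -0.47 and -0.65 for PSAH2 (AT1G52230), and -0.54 and -0.59 for PSAK (AT1G30380). PSAG (AT1G55670), PSAL (AT4G12800), PSAN (AT5G64040) and PSAO (AT1G08380) lay between these extremes.

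The PSB genes encode the extrinsic proteins of the oxygen-evolving complex (PSBO, PSBP, PSBQ), small subunits of photosystem II (PSBR, PSBW, PSBX, PSBY) and PSBS, the protein needed for rapid dissipation of excess light energy. PSBQ1 (AT4G21280) fell most in both comparisons. It stood at 2472, 2446 and 2539 CPM in Ctrl and 1523, 1529 and 1558 CPM in amiR-fie-es, a log2 fold change of -0.69 ± 0.016 (SE, adjusted p = 1.15e-33). In GFP-FIE it was at 2557, 2488 and 2540.0 CPM and in SSTS/AAAA at 1486, 1468 and 1437 CPM, or -0.79 ± 0.016 (SE, adjusted p = 6.63e-36). PSBW (AT2G30570) fell least in amiR-fie-es, from 1727, 1791 and 1762 CPM to 1418, 1401 and 1425 CPM, or -0.32 ± 0.017 (SE, adjusted p = 2.41e-20). PSBO1 (AT5G66570) fell least in SSTS/AAAA, from 5304, 5342 and 5465 CPM in GFP-FIE to 4297, 4348 and 4266 CPM, or -0.32 ± 0.014 (SE, adjusted p = 6.57e-24). No libraries overlapped for these 3 genes. PSBS (AT1G44575) had log2 fold changes of -0.53 and -0.58, PSBQ2 (AT4G05180) of -0.56 and -0.43, and PSBO2 (AT3G50820) of -0.49 and -0.39. PSBP1 (AT1G06680), PSBR (AT1G79040), PSBX (AT2G06520) and PSBY (AT1G67740) lay between -0.50 and -0.39 in both.

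The RBCS genes encode the small subunit of Rubisco, and RCA the activase that frees its active site of bound inhibitors. RBCS2B (AT5G38420) fell most of them in amiR-fie-es, from 4251, 4440.2 and 4387 CPM in Ctrl to 2423, 2412 and 2421 CPM, a log2 fold change of -0.85 ± 0.016 (SE, adjusted p = 1.12e-37). RBCS1A (AT1G67090), the most abundant, fell least there, from 17489, 17752 and 17443 CPM to 12575, 12410.3 and 12592 CPM, or -0.49 ± 0.012 (SE, adjusted p = 3.31e-32). In SSTS/AAAA the order differed. RBCS1B (AT5G38430) fell most, from 1161, 1122 and 1142 CPM in GFP-FIE to 561, 566 and 553 CPM, or -1.03 ± 0.021 (SE, adjusted p = 7.43e-36). RCA (AT2G39730) fell least, from 16898, 16775 and 16756 CPM to 12908, 12883 and 12675 CPM, or -0.39 ± 0.011 (SE, adjusted p = 1.31e-30). No libraries overlapped for these genes in these comparisons. RBCS2B had -0.64 in SSTS/AAAA and RBCS1B -0.68 in amiR-fie-es, while RBCS3B (AT5G38410) had -0.53 and -0.64. The share of RBCS2B in all RBCS transcripts, per length, was 15.7% in Ctrl, 12.8% in amiR-fie-es, 16.0% in GFP-FIE and 16.1% in SSTS/AAAA, and that of RBCS1B 4.32%, 3.96%, 4.22% and 3.25% in the same order.

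Across the 47 genes, the fold changes of the first and second comparison, which share no library, correlated with Pearson's r = 0.67 and Spearman's rho = 0.71, given as a description over genes that are not independent. Over all 20046 genes tested Pearson's r was 0.52. The fall was larger in SSTS/AAAA for 31 of the 47. When the difference between both effects was tested, 21 genes had a larger fall in SSTS/AAAA and 10 a larger fall in amiR-fie-es past the threshold, where 22.0% of all genes were called lower and 23.5% higher. The remaining 16 did not pass it. LHCB1.4 (-0.41 ± 0.023 (SE, adjusted p = 3.59e-19)) and RBCS1B (-0.34 ± 0.03 (SE, adjusted p = 3.16e-13)) had the largest excess in SSTS/AAAA, and LHCB4.3 (0.43 ± 0.055 (SE, adjusted p = 1.03e-08)) and RBCS2B (0.21 ± 0.022 (SE, adjusted p = 4.43e-11)) the largest in amiR-fie-es. Leaving out 1 library at a time, the counts ranged from 17 to 28 and from 8 to 10. Each fall is taken from the line's own control, so the differences include the shift between GFP-FIE and Ctrl. That shift was 0.59 for LHCB1.4, which against Ctrl fell less in SSTS/AAAA (-0.34) than in amiR-fie-es (-0.52). For LHCB4.3 it was -0.45, and against Ctrl the falls were alike (-1.14 in SSTS/AAAA and -1.13 in amiR-fie-es). For RBCS1B (0.02) and RBCS2B (0.08) it was smaller, and their order against Ctrl stayed the same.

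**Figure D2:**
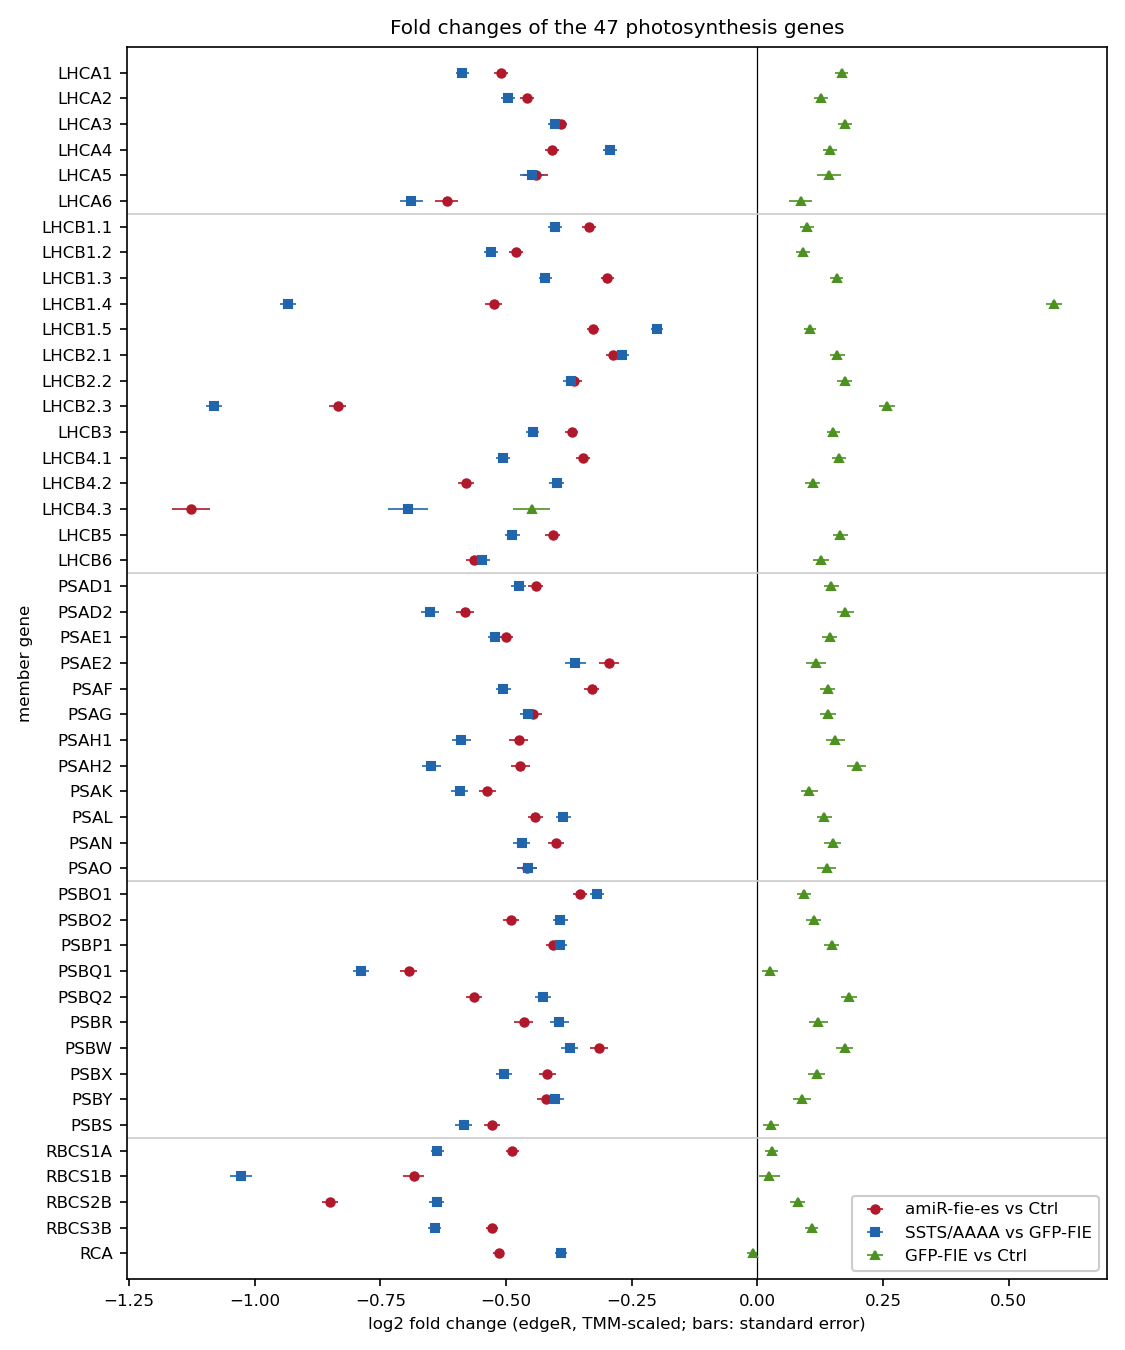
Log2 fold change of each of the 47 genes (horizontal axis; bars are standard errors) in amiR-fie-es against Ctrl, SSTS/AAAA against GFP-FIE and GFP-FIE against Ctrl, with grey lines between families. All points of the first 2 comparisons lie below 0, between -1.13 and -0.20, and those of the third lie above 0 except LHCB4.3 at -0.45 and RCA at -0.01.

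The third comparison set the complemented line against the wild type, and it shares the Ctrl libraries with the first and the GFP-FIE libraries with the second. In GFP-FIE against Ctrl, 41 of the 47 genes rose and 1 fell, where 14.4% of all genes tested were called higher and 15.3% lower. The median log2 fold change was 0.14, against 0.00078 over all genes. All 6 LHCA and all 12 PSA genes rose, the former by 0.09 to 0.17 and the latter by 0.10 to 0.20 on the log2 scale. Of the LHCB genes 13 rose and LHCB4.3 fell, at -0.45 ± 0.037 (SE, adjusted p = 8.27e-14). The 5 that did not pass were PSBQ1 (0.02, adjusted p = 0.284), PSBS (0.03, adjusted p = 0.238), RBCS1A (0.03, adjusted p = 0.0831), RBCS1B (0.02, adjusted p = 0.438) and RCA (-0.01, adjusted p = 0.597). Apart from LHCB1.4 and LHCB4.3, the sizes were small, at most 0.26 on the log2 scale.

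Set against Ctrl in place of GFP-FIE, SSTS/AAAA still had all 47 genes lower, where 34.1% of all genes were called lower and 35.0% higher. The median was then -0.33. With library totals as the scale this result was weaker, with 42 lower, 3 higher and a median of -0.14.

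Other genes of photosynthesis were read from lists of the Calvin cycle, electron transport, chlorophyll synthesis and breakdown, regulators, and kin of the members. Past the threshold, 30.0% of all genes tested fell and 29.3% rose in amiR-fie-es, and 32.3% fell and 33.3% rose in SSTS/AAAA. As for the members, fold changes in these lists depend on the scale used, and small ones can change sign. Of 16 Calvin cycle genes, 15 fell in amiR-fie-es and 15 in SSTS/AAAA, with medians of -0.52 and -0.46. In amiR-fie-es the largest falls were those of CP12-2 (-1.03 (adjusted p = 2.92e-34)), a small regulator of the cycle, of the aldolase gene FBA1 (-0.91 (adjusted p = 1.16e-39)) and of HCEF1 (-0.66 (adjusted p = 1.09e-31)), a fructose-bisphosphatase. In SSTS/AAAA they were those of GAPA-2 (-0.78 (adjusted p = 2.29e-36)), a glyceraldehyde-3-phosphate dehydrogenase, GAPB (-0.59 (adjusted p = 1.77e-33)) of the same enzyme, and FBA2 (-0.59 (adjusted p = 2.60e-33)). CP12-3 (-0.06 and -0.00) did not pass in either.

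Of 12 electron transport genes, 11 fell in each comparison, with medians of -0.44 and -0.49. PETE1, called lower in amiR-fie-es at -0.10, was higher there in FPKM, at a mean of 371 against 348 in Ctrl. FD1, a ferredoxin gene, fell most, at -0.93 (adjusted p = 8.60e-37) from 1012, 1015 and 1019.7 CPM to 532, 534 and 533 CPM in amiR-fie-es, and had -1.05 (adjusted p = 1.54e-38) in SSTS/AAAA. PGRL1B, a factor of cyclic electron flow, was the 1 that rose, at 0.39 (adjusted p = 8.25e-11) in SSTS/AAAA, and had 0.07 (adjusted p = 0.162) in amiR-fie-es.

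Of 17 chlorophyll synthesis genes, 12 fell and 3 rose in amiR-fie-es, and 15 fell and 2 rose in SSTS/AAAA. The 3 genes of light-dependent protochlorophyllide reduction went in different directions. PORC fell, at -0.81 (adjusted p = 3.94e-31) and -0.87 (adjusted p = 1.36e-32). PORA, known from seedlings grown in the dark, rose at 2.86 (adjusted p = 1.84e-21) and 2.66 (adjusted p = 7.69e-24), from a level of only 1.22, 0.884 and 0.691 CPM in Ctrl to 7.12, 6.90 and 6.40 CPM in amiR-fie-es. PORB rose at 0.81 (adjusted p = 6.06e-29) from 96.3, 92.9 and 99.8 CPM to 165, 172 and 170.2 CPM in amiR-fie-es, and at 0.17 (adjusted p = 1.63e-08) in SSTS/AAAA. HEMB1, an enzyme of porphyrin synthesis, rose at 0.15 (adjusted p = 3.83e-07) in amiR-fie-es and fell at -0.28 (adjusted p = 2.26e-14) in SSTS/AAAA.

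Of 8 chlorophyll breakdown genes, 4 fell and 1 rose in amiR-fie-es, whereas 2 fell and 5 rose in SSTS/AAAA. NYE2, a stay-green protein, had the largest rise at 1.17 (adjusted p = 3.31e-04), though from 0.528 CPM. NYE1 (0.54 (adjusted p = 5.69e-11)) and PAO (0.54 (adjusted p = 5.99e-18)) followed, and HCAR fell in both (-0.88 and -0.63). Of 15 regulators, 14 fell in amiR-fie-es, and 8 fell and 4 rose in SSTS/AAAA. GATA22, a factor that promotes chloroplast development, fell most at -1.39 (adjusted p = 8.96e-23) and -0.94 (adjusted p = 1.72e-15), and PIF4, a phytochrome-interacting factor, had -0.96 (adjusted p = 9.64e-31) and -0.83 (adjusted p = 3.45e-29). GLK1 and GLK2, activators of photosynthesis genes, fell in amiR-fie-es (-0.41 and -0.47) and rose in SSTS/AAAA against GFP-FIE (0.22 and 0.11). Both were lower in GFP-FIE than in Ctrl (-0.35 and -0.17), and against Ctrl SSTS/AAAA was lower for both as well, at -0.13 (adjusted p = 1.53e-05) and -0.06 (adjusted p = 0.0228). The direction of SSTS/AAAA against Ctrl depends on the scale. In FPKM every SSTS/AAAA library lay above every Ctrl library, with means of 80.3 against 77.1 for GLK1 and 153 against 140 for GLK2. In SSTS/AAAA against GFP-FIE, PIF3 rose most (0.74 (adjusted p = 1.13e-15)). Tested as a difference of both effects, the effect in SSTS/AAAA was the higher for 12 of the 15 regulators and the lower for 1. In this test 23.5% of all genes were called higher and 22.0% lower. Of 6 kin of the members, 5 fell in each comparison, led by ELIP1 (-1.15 (adjusted p = 6.45e-22)), an early light-induced protein, and by LHCB7 (-0.82 (adjusted p = 1.50e-17)) in amiR-fie-es, and by CURT1B (-0.68 (adjusted p = 3.65e-33)), which bends thylakoid membranes, in SSTS/AAAA.

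In GFP-FIE against Ctrl, 6 Calvin cycle genes rose and 3 fell, 8 electron transport genes rose and 1 fell, and 10 chlorophyll synthesis genes rose and 0 fell, PORB by 0.92 and PORA by 0.89. Of the regulators 1 rose and 8 fell, and of the breakdown genes 0 rose and 3 fell. Past the threshold, 14.4% of all genes tested rose and 15.3% fell in this comparison.

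The peak lists give, for each library, regions where the authors' caller found H3K27me3 enriched. A gene counted as marked where peaks covered at least 200 bp of its body. Read depth and the use of an input library are not given in the sources used here, and the number of peaks per library ran from 1847 in amiR-fie-es to 14696 in AZD8055, so levels of experiments with different yields are set side by side with the share of all genes marked.

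In 2-week shoots, a minority of the 47 genes was marked in 3 of 3 libraries, and the number did not follow that of all genes. In Ctrl 8 of the 47 were marked (17.9% of all genes were), in GFP-FIE 13 (16.0%), in SSTS/AAAA 16 (8.91%) and in amiR-fie-es 14 (3.50%). Per library, 13, 12 and 9 members were marked in Ctrl and 24, 28 and 21 in amiR-fie-es, which did not overlap, while the share of all genes marked fell from 20.1% to 5.65% on average. The means of members marked were 11.3 ± 2.08 and 24.3 ± 3.51 (SD, n = 3 each, exact permutation p = 0.1, two-sided, the smallest possible). GFP-FIE had 19, 20 and 19 members marked and SSTS/AAAA 25, 25 and 22, again without overlap (exact permutation p = 0.1), while the share of all genes fell from 18.1% to 11.3%. Each GFP-FIE library also held more marked members than any Ctrl library (exact permutation p = 0.1). The differences rest on short overlaps: with at least 500 bp required, the difference in means between amiR-fie-es and Ctrl went from 13 to 4.33 members, that between SSTS/AAAA and GFP-FIE from 4.67 to 1.67, and that between GFP-FIE and Ctrl from 8 to 1. With at least 50% of the gene body they were 0.667, -0.667 and 0.333 members, and with −log10 q of at least 10 they were 1.33, 1 and 1.

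**Figure D3:**
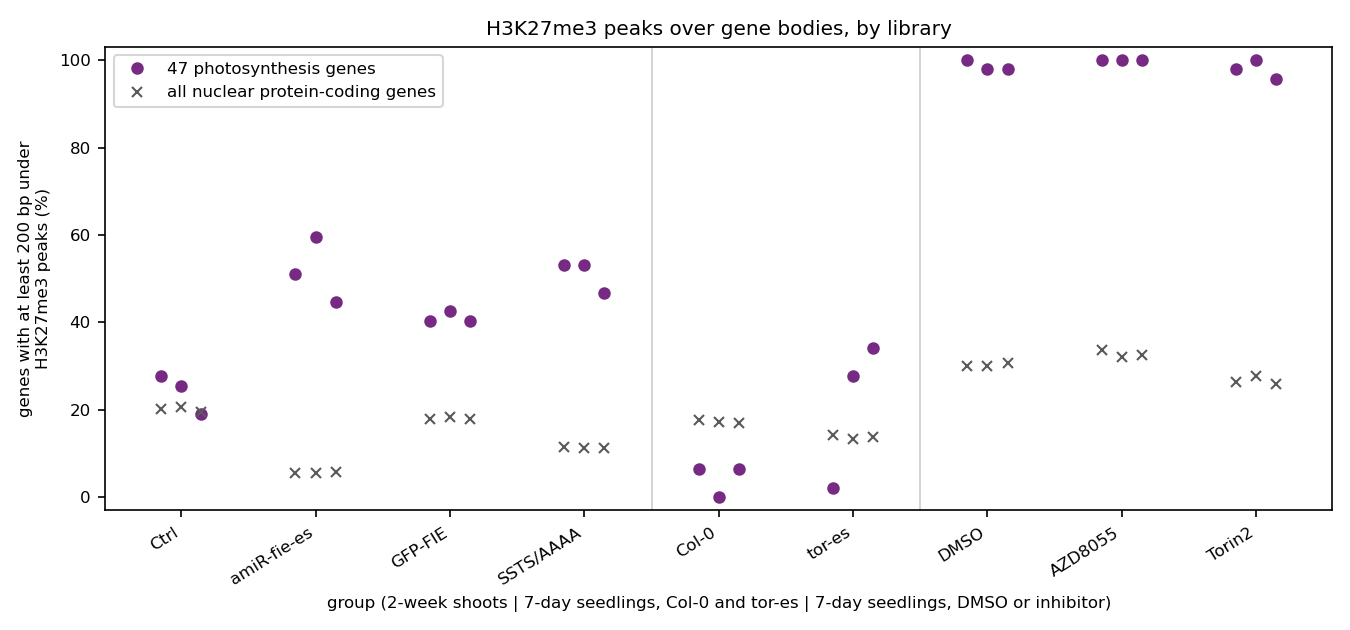
Percent of genes with at least 200 bp under H3K27me3 peaks (vertical axis) in each library, for the 47 photosynthesis genes (circles) and for all nuclear protein-coding genes (crosses), by group. In amiR-fie-es the members lie above 44% while all genes lie below 6%, and with DMSO, AZD8055 or Torin2 the members lie above 95%.

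Some members carried peaks in every shoot library and others in none. LHCB1.2, LHCB1.3, LHCB1.5, RBCS1A and RCA were marked in all 12 of them, and these 5 had 7407 to 16350 FPKM in Ctrl. At the other end, LHCA5, LHCB1.4, LHCB2.3, PSAE2, PSAH1, PSAH2, PSBO2 and RBCS1B were marked in 0 of 12, and these 8 had 133 to 1964 FPKM. Of all genes, at most 3.50% can be marked in all 12, the share marked in 3 of 3 amiR-fie-es libraries. The share of all genes marked in 0 of 12 was not counted. Neighbouring genes differed, as LHCB1.4 in 0 and LHCB1.5 in 12 libraries, or RBCS1B in 0, RBCS3B in 3 and RBCS2B in 10 libraries. These are near-identical copies, and the treatment of multiply mapped reads is not given. Which copy carries a peak is therefore uncertain, as for RNA. Within Ctrl, the 8 genes marked in 3 of 3 libraries had a median of 7801 FPKM and the 31 marked in 0 a median of 2289. In amiR-fie-es the 14 marked had a median of 5073 and the 13 unmarked one of 1135. Over the 47 genes the Spearman correlation of FPKM with the bases covered, summed over 3 libraries, was 0.60 in Ctrl, 0.81 in amiR-fie-es, 0.59 in GFP-FIE and 0.76 in SSTS/AAAA, described over genes of the same libraries.

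**Figure D4:**
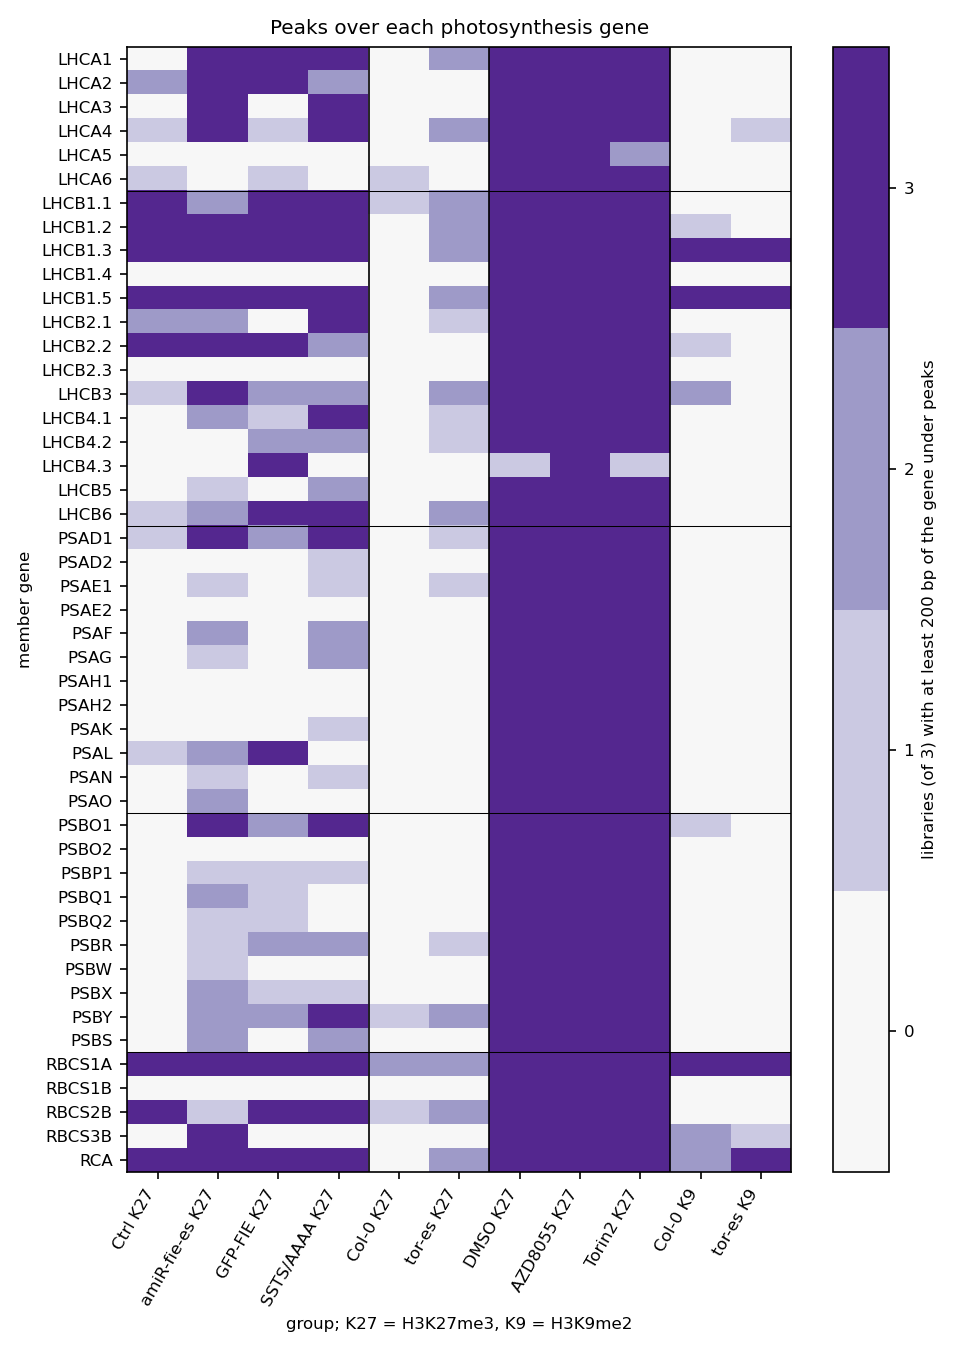
Number of libraries (0 to 3, shade) in which at least 200 bp of each gene lay under peaks, for the 47 genes (rows, by family) and 11 groups (columns: 4 of shoots, Col-0 and tor-es seedlings, 3 of DMSO or inhibitor, 2 of H3K9me2). The columns of DMSO, AZD8055 and Torin2 are dark for nearly every gene, the column of Col-0 is nearly empty, and in shoots the rows of LHCB1.2, LHCB1.3, LHCB1.5, RBCS1A and RCA are dark throughout.

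RBCS1A gives an example of the peaks' place and size. In TAIR10 coordinates, Ctrl replicate 1 had a peak of 837 bp at chr1:25048335-25049171 inside this gene, with a fold enrichment of 6.89, a value from the authors' caller. The highest fold over RBCS1A was 7.98 in Ctrl, 11.04 in amiR-fie-es, 7.88 in GFP-FIE and 10.4 in SSTS/AAAA. Over LHCB1.3, Ctrl replicate 1 had a peak of 839 bp at chr1:10478097-10478935 with a fold of 7.40. In shoots the median fold of peaks over members was 3.43 to 5.29 per library, against 3.43 to 4.72 over all peaks of a library, and marked members were covered over 21.2% to 51.7% of their length at the median.

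Gains and losses, defined as 3 of 3 libraries against 0 of 3, were few. In amiR-fie-es against Ctrl, 4 members gained peaks, namely LHCA1, LHCA3, PSBO1 and RBCS3B, and 0 lost them. Their peaks were short, covering 431 to 678 bp of LHCA1, 240 to 539 bp of LHCA3, 200 to 707 bp of PSBO1 and 227 to 308 bp of RBCS3B, and 0 of the 4 reached 500 bp in all 3 libraries. Of all genes, 0.0255% gained and 10.2% lost, and these 4 are among only 7 genes that gained. Over LHCA1, amiR-fie-es replicate 1 had its peak at chr3:20339809-20340239 with a fold of 5.05. In SSTS/AAAA against GFP-FIE, LHCA3 and LHCB2.1 gained and LHCB4.3 and PSAL lost peaks, where 0.0109% of all genes gained and 2.89% lost. In GFP-FIE against Ctrl, LHCA1 and LHCB4.3 gained, where 0.0328% of all genes did. The RNA of the 4 genes that gained in amiR-fie-es lay on both sides of the members' median fold change, with log2 fold changes of -0.51, -0.39, -0.35 and -0.53 beside a median of -0.46. The 14 members marked in 3 of 3 amiR-fie-es libraries had a median log2 fold change of -0.43 with 0 falls of at least 1.5-fold, and the 13 unmarked a median of -0.54 with 4 such falls. In SSTS/AAAA the 16 marked had a median of -0.41 with 3 such falls and the 16 unmarked one of -0.62 with 9.

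LHCB4.3 stood apart in this respect. It was the only one of the 47 marked in 3 of 3 GFP-FIE libraries and in 0 of the 9 other shoot libraries, at chr2:16746127-16746381 in replicate 1 with a fold of 3.22. These peaks covered 252 to 324 bp, near the limit of 200 bp, and their folds of 2.47 to 3.44 lay below the median of all peaks in those lists. The peaks over PSAL in GFP-FIE likewise covered 200 to 360 bp.

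In 7-day seedlings, few of the 47 genes were marked in Col-0 and nearly all in the groups given DMSO or an inhibitor. Col-0 seedlings had 3, 0 and 3 members marked, and 0 of the 47 in 3 of 3 libraries, where 14.6% of all genes were. In tor-es, 1, 13 and 16 members were marked and 0 in 3 of 3, where 10.9% of all genes were. Replicate 1 of tor-es stood apart, and without it 11 members were marked in both libraries left. The means of Col-0 and tor-es, 2.00 ± 1.73 and 10.0 ± 7.94 (SD, n = 3 each), did not differ beyond the spread (exact permutation p = 0.3).

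With DMSO, the solvent control of the inhibitors, 47, 46 and 46 members were marked, and 46 in 3 of 3 libraries, where 26.7% of all genes were. AZD8055 had all 47 in 3 of 3 libraries, where 26.2% of all genes were, and Torin2 had 45, where 22.4% were. With nearly every member marked in each of these libraries, the number of members marked has no room to show a rise and was not read as a comparison of the inhibitors with DMSO. LHCB4.3 was marked in 1 DMSO, 3 AZD8055 and 1 Torin2 library, and LHCA5 in 2 of 3 Torin2 libraries. All other members were marked in each of these 9 libraries. Between DMSO and Col-0, which are the same genotype and age, 41 members were gained, where 8.38% of all genes were, and the mean numbers were 46.3 ± 0.577 and 2.00 ± 1.73 (SD, n = 3 each, exact permutation p = 0.1). The solvent and the experiment cannot be told apart in this comparison.

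The peaks of the inhibitor experiment over members were also wide and strong. Their median fold was 7.40 to 8.33 per library, against 3.02 to 3.21 over all peaks, so that the median member peak lay at the 97.9th to 98.7th percentile of its list. Their median width was 780 to 834 bp, and they covered 69.9% to 73.7% of marked members at the median. The median fold per library was 8.00, 8.26 and 8.06 with DMSO, 8.16, 8.33 and 7.99 with AZD8055 and 7.40, 7.71 and 7.76 with Torin2. Torin2 lay below DMSO without overlap (means 7.62 ± 0.194 and 8.11 ± 0.135, SD, n = 3 each, exact permutation p = 0.1), and AZD8055 overlapped DMSO (exact permutation p = 0.8). Over all peaks of the lists the median fold was also lower with Torin2, at 3.04 ± 0.0210 against 3.14 ± 0.0511 (SD, n = 3 each, exact permutation p = 0.1). This comparison was added after the values were seen, and both inhibitors share the DMSO libraries. Over RBCS1A, DMSO replicate 1 had a peak of 1039 bp at chr1:25048266-25049304 with a fold of 12.9, whereas Col-0 replicate 1 had 228 bp at chr1:25048411-25048638 with a fold of 4.48. Over RCA, DMSO replicate 1 had 2051 bp at chr2:16570830-16572880 with a fold of 6.94.

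Genes outside the list but with like RNA levels showed the same pattern. RNA of 7-day seedlings was not analysed here, so levels of 2-week Ctrl shoots stand in. Of the 36 other genes with at least 1000 FPKM, all 36 were marked in 3 of 3 libraries with DMSO, with AZD8055 and with Torin2, but 3 in Col-0. These 36 are not a set apart from photosynthesis, as they include FBA1, FBA2, GAPA-2, GAPB, FD1, CURT1B and others of the further lists. With 100 to 1000 FPKM, 82.9% of 893 genes were marked with DMSO, 87.8% with AZD8055 and 77.3% with Torin2, against 4.82% in Col-0. With 10 to 100 FPKM these shares were 20.6%, 29.8% and 15.4%, against 3.98%. In shoots, each group was divided by its own RNA, so that the genes in a range differ between groups. Of genes under 1 FPKM, 36.0% were marked in Ctrl and 6.68% in amiR-fie-es, while other genes of at least 1000 FPKM stood at 4 of 36 in Ctrl and 3 of 28 in amiR-fie-es, where members of that level stood at 8 of 42 and 14 of 41. The part of RNA level in the peaks over members was not tested.

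**Figure D5:**
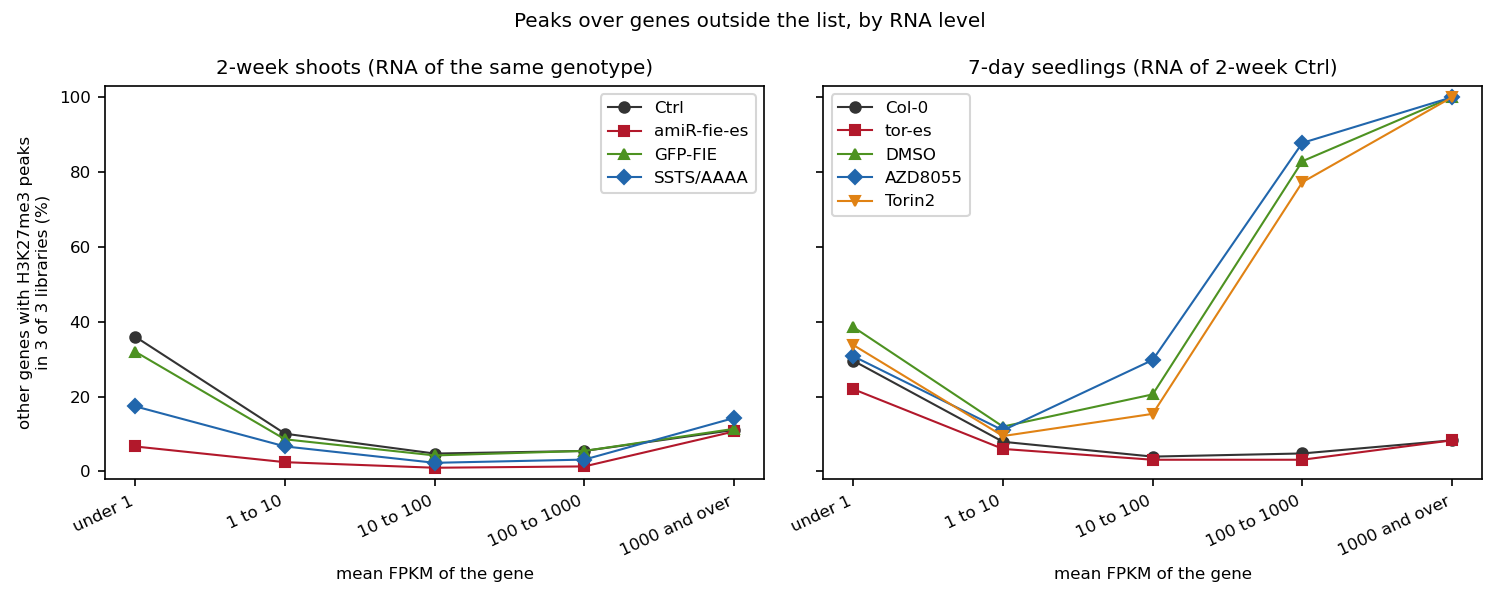
Percent of genes outside the list that were marked in 3 of 3 libraries (vertical axis) by their mean FPKM (horizontal axis, 5 ranges), for shoots (left, RNA of the same genotype) and seedlings (right, RNA of 2-week Ctrl). In Ctrl, GFP-FIE and SSTS/AAAA shoots and in Col-0 and tor-es seedlings the share is highest under 1 FPKM, in amiR-fie-es it is 6.68% there and 10.7% (3 of 28 genes) at 1000 FPKM and over, and with DMSO, AZD8055 or Torin2 it reaches 100% at 1000 FPKM and over.

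H3K9me2 peaks were few, 291 to 406 per library, yet some lay over members. LHCB1.3, LHCB1.5 and RBCS1A were marked in 3 of 3 libraries in both Col-0 and tor-es, and RCA in 2 and 3. This made 3 of the 47 in Col-0, where 0.0802% of all genes were marked, and 4 of the 47 in tor-es, where 0.0838% were. Per library, 5, 8 and 5 members were marked in Col-0 and 6, 4 and 4 in tor-es. These counts rest on short or weak peaks: they became 1 and 0 with at least 500 bp, 1 and 0 with at least 50% of the body, and 0 and 0 with −log10 q of at least 10. These peaks of 7-day seedlings were set against H3K27me3 peaks of Ctrl, which are from 2-week shoots. Of the 836 bp that Col-0 H3K9me2 peaks covered over LHCB1.3, 100% lay under Ctrl H3K27me3 peaks, and of the 858 bp over RBCS1A 92.5% did. In H3K27me3 libraries of the Col-0 seedlings themselves, peaks covered 228, 0 and 202 bp of RBCS1A. They covered 0 bp of LHCB1.2, LHCB1.3, LHCB1.5, LHCB2.2, LHCB3 and RCA. The share under Ctrl H3K27me3 peaks was 100% for LHCB1.2, LHCB1.5 and RCA, 89.0% for LHCB3 and 56.5% for LHCB2.2, while PSBO1 and RBCS3B, each with H3K9me2 peaks, were marked by H3K27me3 in 0 Ctrl libraries. Over RBCS1A, Col-0 replicate 1 had H3K9me2 peaks at chr1:25048397-25048683 and chr1:25048849-25049254, with folds of 10.6 and 5.85.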

How the data were processed

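RNA was measured in 12 libraries of 4 genotypes, and H3K27me3 in 27 and H3K9me2 in 6 ChIP libraries. The authors deposited whole-number counts per gene and FPKM values, which equal counts divided by gene length and library total. They also deposited a peak list per ChIP library, which gives the fold enrichment (a ratio) and the −log10 of the p and q values of each peak. Per the submitters' processing notes, FastQC 0.11.5, Trimmomatic 0.36, HISAT2 2.1.0, featureCounts 1.5.3, BWA 0.7.15, SAMtools 1.6 and MACS2 were used with TAIR10. Those notes also name hg19, and 0 peaks lay on human chromosomes. Strandedness, treatment of multiply mapped reads, the q threshold and the use of input are not given in the sources used here.

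Counts were tested in R 4.3.3 with edgeR 4.0.16 (filterByExpr, TMM, quasi-likelihood test, 1 fit of all 12 libraries by genotype, Benjamini-Hochberg threshold 0.05). CPM in the text are TMM-scaled. On simulated data, 179 of 198 changed genes were recovered with 7 false calls among 19805 genes. Few genes were changed there, about equally up and down, so it does not test the scaling between genotypes. Gene positions come from RefSeq (TAIR10.1), which was checked by shifting: 403 genes were covered to at least 90% by peaks in all 3 Ctrl libraries as placed, against 71 to 102 after shifts of 1 to 20 kb. The table gives no strand, and sequences, promoter motifs and the stretch before gene starts were not analysed here. Python 3.11.15 handled the peaks. Counts of libraries within a group differed by more than sampling noise (chi-square per degree of freedom 1.46 to 3.44), so none was counted as a duplicate, which does not show that they are biological replicates. Same-numbered libraries were not paired, as 0 of 18 correlations of their deviations exceeded 0.1.

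The 47 genes and all lists were chosen with earlier results of these data known. Genes given per library are those with the largest and smallest fall per family and comparison, plus the largest mover of each direction in GFP-FIE. From each list the text names up to 3 genes per direction. Alternatives were DESeq2 1.42.0, other scalings, no filter, a replicate block, each library left out, summed copies, and for peaks longer overlaps and a stricter q.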

Additional observations from a re-analysis of the deposited data

Results flagged for a closer look

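For 31 of the 47 genes the effect in SSTS/AAAA against GFP-FIE differed from the effect in amiR-fie-es against Ctrl in the interaction test of edgeR's quasi-likelihood fit (adjusted p under 0.05). Values are the first effect minus the second on the log2 scale. A negative value is thus a larger fall in SSTS/AAAA from GFP-FIE than in amiR-fie-es from Ctrl.

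In the LHCA family the difference was -0.077 for LHCA1 and 0.12 for LHCA4. Among LHCB1 genes it was -0.068 for LHCB1.1, -0.050 for LHCB1.2, -0.12 for LHCB1.3, -0.41 for LHCB1.4 and 0.13 for LHCB1.5. LHCB2.3 had -0.25, LHCB3 -0.078, LHCB4.1 -0.16, LHCB4.2 0.18, LHCB4.3 0.43 and LHCB5 -0.080. Copies of the same antenna protein thus had differences of either sign, in LHCB1 and in LHCB4.

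In the PSA family the difference was -0.070 for PSAD2, -0.18 for PSAF, -0.11 for PSAH1, -0.18 for PSAH2, 0.056 for PSAL and -0.068 for PSAN. In the PSB family it was 0.098 for PSBO2, -0.095 for PSBQ1, 0.14 for PSBQ2, 0.071 for PSBR, -0.058 for PSBW, -0.086 for PSBX and -0.056 for PSBS. PSBQ1 and PSBQ2 differed in sign. Among the Rubisco genes it was -0.15 for RBCS1A, -0.34 for RBCS1B, 0.21 for RBCS2B and -0.11 for RBCS3B, and RCA had 0.12. LHCB1.2 (adjusted p = 0.0331), PSBW (adjusted p = 0.0452) and PSBS (adjusted p = 0.0474) lay near the threshold. Each difference includes the shift between the 2 controls. In GFP-FIE against Ctrl, 41 of the 47 genes were higher (median 0.14), where 14.4% of all genes tested were. Against Ctrl, the members' median was -0.33 in SSTS/AAAA and -0.46 in amiR-fie-es. The cause of the differences between both effects was not tested.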

How the results depend on the processing

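All 47 genes stayed lower in amiR-fie-es and in SSTS/AAAA with DESeq2, its size factors, no filter, a replicate block and any single library left out. With library totals as the scale, LHCB1.5 turned to 0.013 in SSTS/AAAA, PSBQ1 to -0.0019 and RBCS1B to -0.0024 in GFP-FIE, and the number of members lower in GFP-FIE rose to 2. RCA in GFP-FIE turned to 0.00028 with upper-quartile scaling. The members' median was -0.27 in amiR-fie-es, -0.26 in SSTS/AAAA and -0.14 in SSTS/AAAA against Ctrl (3 members higher) with library totals, and -0.43 and -0.31 in the first and last of these with upper quartiles. Without single libraries, the median ran from -0.51 to -0.47 in SSTS/AAAA and from -0.37 to -0.32 against Ctrl, and the difference of effects gave 17 to 28 members lower and 8 to 10 higher. With near-identical copies summed there were 38 features, all lower in both. With the replicate block, 47 and 47 members were lower and the difference of effects had 19 lower and 10 higher. The block changed no call on a member's fold change in the first 3 comparisons. Same-numbered libraries had correlations of -0.04 to 0.05. For peaks, the members marked in 3 of 3 libraries (amiR-fie-es, Ctrl, GFP-FIE and SSTS/AAAA) were 6, 5, 5 and 6 with at least 500 bp, 4, 4, 4 and 2 with at least 50% of the body, and 2, 2, 2 and 3 with −log10 q of at least 10. H3K9me2 then marked 1, 1 and 0 members in Col-0 and 0, 0 and 0 in tor-es, and 4 to 4 with a library left out. Leaving out a library gave 0 to 1 members in Col-0 and 0 to 11 in tor-es. The difference between SSTS/AAAA and GFP-FIE turned to -0.667 members at 50% of the body, and AZD8055 against DMSO to -0.333 at the stricter q. Torin2 against DMSO was 0 at 50% of the body and ran from -0.833 to 0.167 without single libraries, positive without Torin2 replicate 3. The cause was not tested. Gene bodies extended by 1 kb on both sides were added after seeing the data. Promoter motifs and the kilobase before gene starts were planned and not run. ChIP depth is unknown, which limits every count of marked genes.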

Other observations

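Genes encoded in the chloroplast, 133 in number, took 1.01% to 1.09% of all counts in Ctrl, 0.780% to 0.824% in amiR-fie-es, 1.03% to 1.12% in GFP-FIE and 0.698% to 0.914% in SSTS/AAAA. Of 6 guard cell markers, 5 fell in amiR-fie-es, where 30.0% of all genes tested were called lower. In SSTS/AAAA 2 fell and 3 rose, where 32.3% of all genes were called lower and 33.3% higher. KAT1, a potassium channel gene, fell most, at -2.02 (adjusted p = 1.34e-28) in amiR-fie-es and -2.04 (adjusted p = 2.31e-28) in SSTS/AAAA (edgeR's quasi-likelihood test), and the summed level of the 6 markers ran from 42.2 to 54.7 FPKM over the 12 libraries. The median log2 fold change of the 6 was -0.30 in amiR-fie-es and 0.01 in SSTS/AAAA, where the largest rise was 0.77. SLAC1 had a mean of 1.84 FPKM in GFP-FIE and 3.65 in SSTS/AAAA.

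Other photosynthesis genes were also set against the H3K27me3 peaks of the inhibitor experiment. Of all genes, 26.7% were marked in 3 of 3 libraries with DMSO, 26.2% with AZD8055 and 22.4% with Torin2. Of 16 Calvin cycle genes, 15 were marked in 3 of 3 libraries with DMSO, AZD8055 and Torin2 and 0 in Ctrl, Col-0 and tor-es. Of 12 electron transport genes 11 were marked in each of the same 3 groups, and of 17 chlorophyll synthesis genes 10, 13 and 10. Of 8 chlorophyll breakdown genes only 1 was marked in each, and of 15 regulators 5, 5 and 3, against 3 in Col-0. The floral organ genes, known targets of Polycomb repression, were marked in 7 of 7 cases in every H3K27me3 group but amiR-fie-es, where 6 were. The share of all genes marked was 3.50% in amiR-fie-es and 8.91% to 26.7% in the other H3K27me3 groups.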
